A study of Mus musculus with 22 samples.

Results

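G6pc, which encodes the catalytic subunit of glucose-6-phosphatase, was examined together with 6 other genes of glucose production in the terminal ileum of mice of the NOD strain, which is prone to autoimmune diabetes. The 7 genes were G6pc, Slc37a4, Fbp1, Pck1, Pcx, Khk and Ppargc1a, out of 18194 genes with a named probe set. They were taken by symbol, and G6pc was selected on its low values in PAT arrays against control arrays. The array carried 17 probe sets for these symbols, and each gene was read from its probe set of highest mean. All 7 were measured on every array and no filter on low values was applied.

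The mice had received PAT, which is antibiotics in pulses at therapeutic doses, or STAT, which is antibiotics at a sub-therapeutic level, or neither (control). Each treatment was split by sex, giving 3 PAT females, 5 PAT males, 3 STAT females, 3 STAT males, 3 control females and 5 control males, with 1 array per sample. All animals shared the NOD background, and the sources used here name no drug, dose or age. Whether each sample is a separate animal is not stated, so p-values cover the spread between arrays, part of which may be technical. Values are log2 expression, on which a difference of 1 is a doubling, and they cannot be compared between genes.

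Gluconeogenesis makes new glucose from lactate, glycerol and amino acids, mainly in liver and kidney, and the small intestine also holds the pathway, with glutamine as a known substrate there. Pcx and Pck1 carry pyruvate to phosphoenolpyruvate, Fbp1 removes a phosphate from fructose-1,6-bisphosphate, and Slc37a4 and G6pc act at the endoplasmic reticulum to release free glucose. Khk brings dietary fructose into the same stretch of the pathway, and Ppargc1a encodes PGC-1α, a coactivator that in liver switches on G6pc and Pck1.

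The tissue label was met by the arrays. The ileal bile acid binding protein gene Fabp6 read between 13.9 and 14.6 on every array, and the apical bile acid transporter gene Slc10a2 between 9.61 and 11.98. One sample stood apart: PAT female 1 read 10.4 for the lactase gene Lct, against 4.18 to 4.81 on the other arrays, and 9.16 for the B cell gene Ms4a1, against at most 5.56. That array also had the lowest Slc10a2 value, and the highest mean over 8 proximal small bowel markers, Lct among them. The proximal mean was 9.17, against at most 8.67 on the other arrays, and this lead came from Lct. The other proximal markers were mixed on PAT female 1. Fabp1, Gata4, Cybrd1 and Cck had their highest value of all arrays there, Slc40a1 (8.81) and Sct (10.04) their lowest, and Cyp2c65 lay between. STAT males 2 and 3 had the lowest mean over 10 enterocyte markers, 11.9 and 12.2, against at least 12.6 elsewhere. Differences of the 7 genes are also given without them.

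G6pc had by far the widest difference of the 7 genes and was lower in PAT ileum. Its probe set read 7.28, 6.58 and 6.25 in the PAT females, against 8.87, 9.25 and 9.81 in the control females. In the males it read 7.08, 6.21, 8.04, 6.43 and 6.36 under PAT, against 10.39, 9.76, 9.85, 9.12 and 9.25 in controls. All 8 PAT arrays lay below all 8 control arrays, with a gap of 0.83 between the highest PAT value and the lowest control value. Such a complete separation downward occurred for 1.15% of all genes. With both sexes averaged, the log2 difference was -2.73 ± 0.28 (SE of the limma fit), a 6.62-fold lower level, or 15.1% of the control level (95% confidence interval of the log2 difference, -3.30 to -2.15). Only 2 of the 18194 genes had a lower value in this comparison. These values chose the gene, so they are a description and carry no test.

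The lower level was seen in both sexes. The log2 difference was -2.61 ± 0.44 in PAT females and -2.85 ± 0.34 in PAT males. The PAT effect in females minus that in males was 0.24 ± 0.55, with a 95% interval of -0.91 to 1.39. It rests on the arrays that chose the gene, so it too is a description. Leaving out any 1 PAT or control array, PAT female 1 included, kept the average between -2.88 and -2.60.

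The deposited arrays are bulk tissue, in which fewer cells expressing a gene and less RNA per cell cannot be told apart. The mean over the 10 measured enterocyte markers was 12.9 in PAT and 12.8 in control ileum, with 1 called higher (Apoa4, 1.73 ± 0.34, adjusted p = 0.00274 in limma) and 1 called lower (Mep1a, -0.45 ± 0.10, adjusted p = 0.00648). The higher PAT mean came from Apoa4, and the median difference of the 10 markers was 0.02. Both called genes stay in that mean, here and wherever it serves as a covariate. With that mean as a covariate the G6pc difference was -2.92. Of 6 distal small bowel markers, Fabp6 (0.21 ± 0.07, adjusted p = 0.0487) and Fgf15 (2.16 ± 0.52, adjusted p = 0.0104) were called higher. Of 8 proximal markers, Fabp1 was called higher and Slc40a1 lower, at 1.62 ± 0.29 and -1.31 ± 0.18. The mean of 6 crypt and dividing cell markers ran from 8.78 to 9.32 in PAT males, below the 9.34 to 9.52 of control males, and from 9.51 to 9.90 in PAT females, against 9.33 to 9.57 in control females. Of those 6, Ascl2 was called lower, at -0.58 ± 0.13. The other markers of these lists were not called, and 11.0% of all genes were called in this comparison. The part of these cell types in the G6pc difference was not tested. Genes for other forms of glucose-6-phosphatase were not called. G6pc3, the form found in most tissues, differed by -0.00 ± 0.08 between PAT and control (95% interval -0.16 to 0.16, adjusted p = 0.998). G6pc2, the pancreatic islet form, lay between 3.33 and 3.74 on all 22 arrays, below the median probe set of every array (5.68 to 5.79). It differed by 0.06 ± 0.06 (95% interval -0.06 to 0.19, adjusted p = 0.60), and at so low a level a difference could go unseen.

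**Figure D1:**
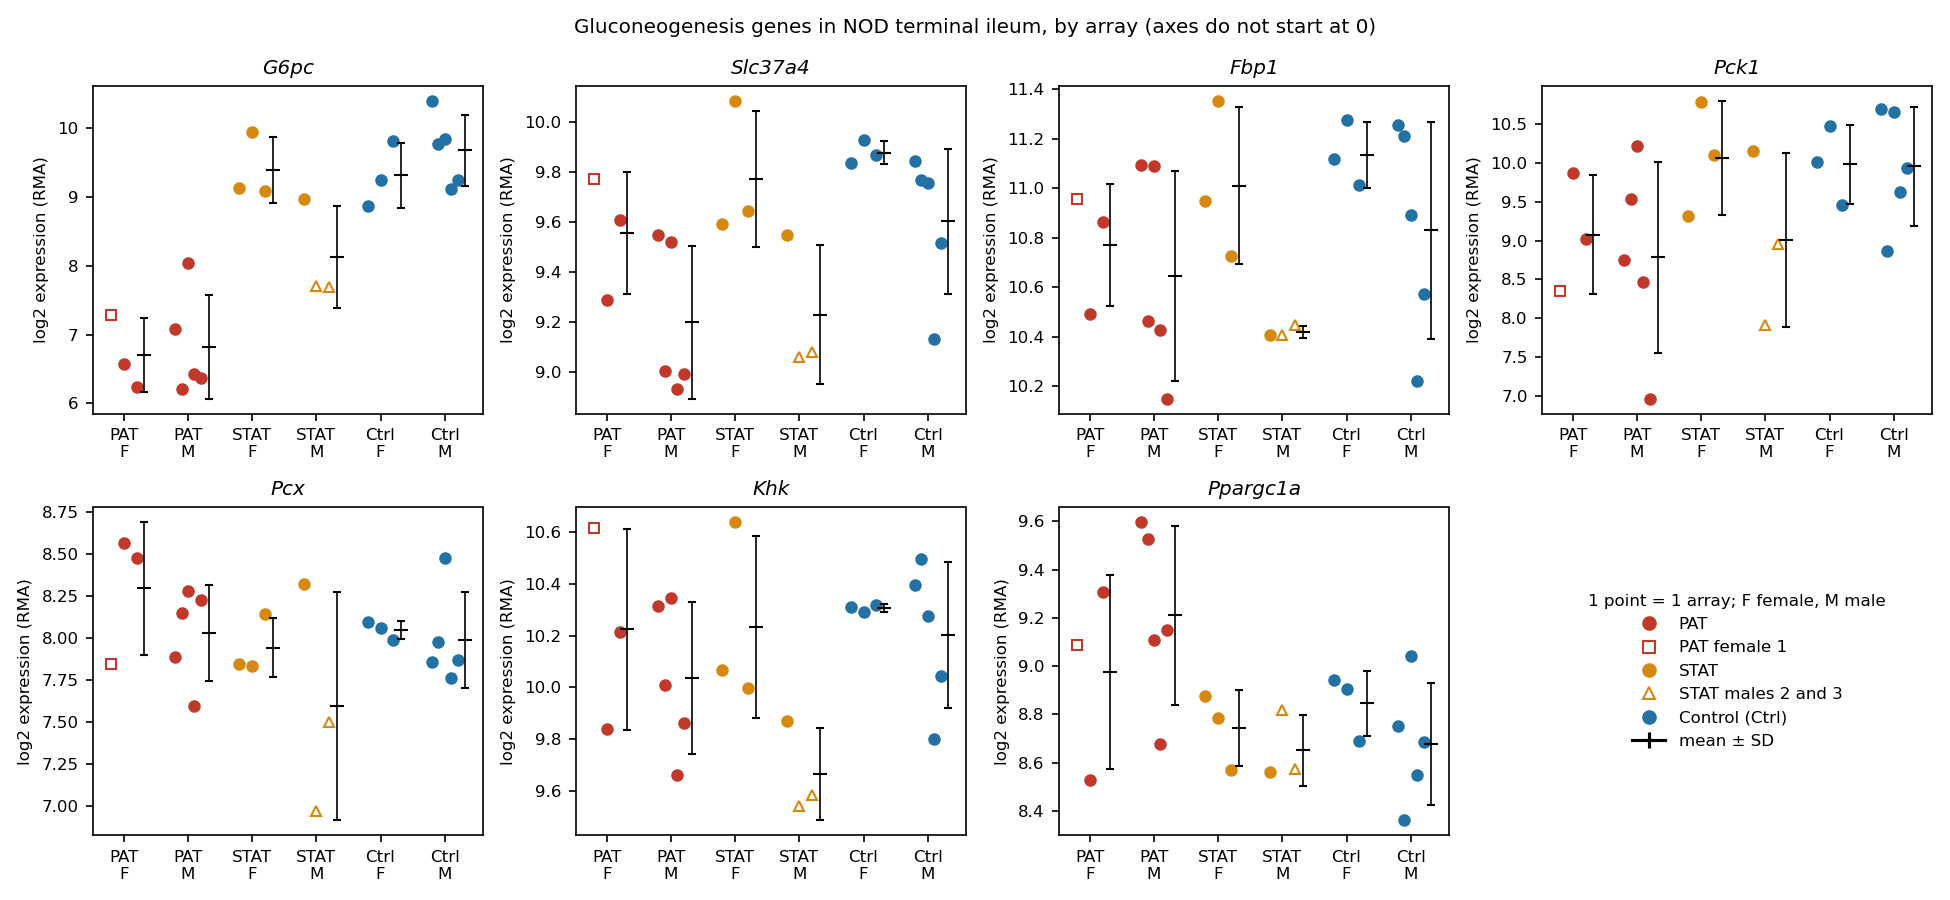
Log2 expression of the 7 genes on each of the 22 arrays, by treatment and sex, with the mean and SD of each group in black. The PAT points of G6pc sit between 6.21 and 8.04, all below the control points, while the other 6 panels show overlapping PAT and control points.

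The promoters of G6pc and Pck1, the most studied hormone-responsive promoters of the pathway, are shown because the values of these genes differed most between PAT and control. The sequences are the 250 bases before the start site in RefSeq, 5′ to 3′ on the gene's strand, on build GRCm38.p6. G6pc lies on the plus strand at chr11:101367466-101367715 and Pck1 on the plus strand at chr2:173152823-173153072. Capitals mark matches, on either strand, to TATAAA (the TATA box), TGTTT (a core bound by FOXO and FOXA factors), TGACG (part of the cyclic AMP response element), GTTAAT (an HNF1 core) and CAAAG (part of HNF4 sites).
G6pc: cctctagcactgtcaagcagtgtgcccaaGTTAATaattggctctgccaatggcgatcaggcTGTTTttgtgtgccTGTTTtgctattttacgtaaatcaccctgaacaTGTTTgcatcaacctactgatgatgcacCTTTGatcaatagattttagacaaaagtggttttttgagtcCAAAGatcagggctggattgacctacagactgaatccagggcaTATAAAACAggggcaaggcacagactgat
Pck1: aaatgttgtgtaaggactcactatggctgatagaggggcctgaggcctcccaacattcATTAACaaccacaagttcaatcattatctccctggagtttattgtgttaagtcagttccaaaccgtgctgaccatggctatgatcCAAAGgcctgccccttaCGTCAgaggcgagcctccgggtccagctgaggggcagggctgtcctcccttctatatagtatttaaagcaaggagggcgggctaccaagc
The G6pc stretch held 4 matches to TGTTT, beginning 188, 174, 141 and 25 bases before the start site, the last of them overlapping the TATAAA match that begins at base 29. It also held 1 match to GTTAAT and 2 to CAAAG, and none to TGACG. The Pck1 stretch held 1 match to TGACG, 1 to GTTAAT and 1 to CAAAG, and none to TGTTT or TATAAA. Of all 32851 promoter windows of this length, 46.4% held TGTTT, 12.4% TATAAA, 17.8% TGACG, 6.43% GTTAAT and 48.6% CAAAG. These matches describe letters only, and binding was not measured. Only exact matches were counted, so a stretch without one may still hold a variant of the site.

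Under STAT, the values of G6pc were near control in females and lower in males. The control arrays took part in the choice of the gene, so these values too are a description. The STAT females read 9.13, 9.94 and 9.08 and overlapped the control females given above. The STAT males read 8.97, 7.71 and 7.69, and all 3 lay below the 5 control males, as happened for 3.64% of all genes. The log2 difference from control was 0.07 ± 0.44 in females (95% interval -0.84 to 0.98) and -1.55 ± 0.39 in males. With both sexes averaged it was -0.74 ± 0.29. The STAT effect in females minus that in males was 1.62 ± 0.59, and whether the sexes differed was not tested for G6pc. The male value moved with STAT males 2 and 3: without both it was -0.70, and without STAT male 1 it was -1.97. With both sexes averaged it was -0.31 without STAT males 2 and 3. Those 2 samples also had a larger difference between the 3′ and 5′ beta-actin probe sets, 0.59 and 0.60, against 0.28 to 0.42 on the other arrays. With the enterocyte mean as a covariate the male difference was -0.68, and with array weights -1.75. The part of cell content or RNA quality in the STAT value was not tested.

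From low to high, the group means of G6pc were 6.70 ± 0.53 in PAT females (SD, n = 3), 6.83 ± 0.76 in PAT males (n = 5), 8.13 ± 0.74 in STAT males (n = 3), 9.31 ± 0.48 in control females (n = 3), 9.38 ± 0.48 in STAT females (n = 3) and 9.67 ± 0.51 in control males (n = 5). Every neighbouring pair in this order overlapped in range. Across treatments, 7 of the 8 PAT arrays lay below all 6 STAT arrays. The exception, PAT male 3 at 8.04, was above STAT males 2 and 3. PAT minus STAT was -1.99 ± 0.29 with both sexes averaged, and this too is a description, since the PAT arrays chose the gene.

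None of the other 6 genes passed the threshold, an adjusted p under 0.05 in limma over all genes, in PAT against control with both sexes averaged, where 11.0% of all genes were called. At an unadjusted p under 0.05, 3 of the 6 were past the line, against 24.1% of all genes. Slc37a4, Fbp1, Pck1 and Khk had lower PAT values and Pcx and Ppargc1a higher ones, and the median of the 6 was -0.20, against -0.00 over all genes. Slc37a4, Pck1 and Ppargc1a each came under the threshold when 1 or more single arrays were left out, as given below. Without PAT female 1 the differences of Slc37a4, Fbp1, Pck1 and Khk were -0.42, -0.32, -0.85 and -0.22 and those of Pcx and Ppargc1a 0.26 and 0.30, with no adjusted p under 0.062.

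Slc37a4 transports glucose-6-phosphate into the endoplasmic reticulum, where the G6pc enzyme cleaves it. It read 9.77, 9.29 and 9.61 in PAT females, against 9.84, 9.93 and 9.87 in control females. In males it read 9.55, 9.01, 9.52, 8.93 and 8.99 under PAT, against 9.84, 9.77, 9.76, 9.13 and 9.52 in controls. The PAT females were all below the control females, as was so for 13.2% of genes, and the males overlapped. The averaged log2 difference was -0.36 ± 0.13 (adjusted p = 0.0688 in limma). The adjusted p was 0.0388 without PAT male 1, 0.0372 without PAT male 3 and 0.0235 without control male 4, and at most 0.186 over all such omissions. With the enterocyte mean as a covariate Slc37a4 was called, at -0.46 (adjusted p = 0.00236), and with the difference between the 3′ and 5′ Gapdh probe sets as a covariate it was not, at -0.22 (adjusted p = 0.506). In STAT the levels were 9.59, 10.08 and 9.64 in females and 9.55, 9.06 and 9.08 in males, and the averaged difference from control was -0.24 ± 0.13 (adjusted p = 0.45).

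Pck1, the cytosolic phosphoenolpyruvate carboxykinase gene, varied widely within groups. It read 8.35, 9.87 and 9.01 in PAT females, against 10.02, 10.47 and 9.46 in control females. In males it read 8.75, 9.54, 10.22, 8.46 and 6.96 under PAT, against 10.69, 8.87, 10.66, 9.62 and 9.93 in controls. Of the 8 PAT arrays, 4 lay below every control array. How many of all genes had such a partial separation was not counted, here and for the genes below. The averaged difference was -1.04 ± 0.42, with a 95% interval of -1.91 to -0.16 (adjusted p = 0.121 in limma), and without PAT male 3 it was -1.22 (adjusted p = 0.0465). Omissions of 1 array gave -1.24 to -0.81. Another Pck1 probe set differed by -1.19 ± 0.39, and the dimmest, with a mean of 3.51, differed by 0.02 ± 0.08. STAT read 9.31, 10.78 and 10.10 in females and 10.15, 7.91 and 8.95 in males, with an averaged difference from control of -0.43 ± 0.44 (adjusted p = 0.71). The mitochondrial gene Pck2, on its own probe set, differed by 0.09 ± 0.09 between PAT and control (adjusted p = 0.64).

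Adipocytes also express Pck1 and Pcx strongly, and fat markers differed widely among the samples. The adiponectin gene Adipoq ranged from 4.14 to 11.2 over the PAT arrays, from 4.74 to 10.95 over the STAT arrays and from 4.18 to 12.1 over the control arrays. The mean of the 5 measured adipocyte markers lay between 6.09 and 8.16 in PAT, between 5.49 and 8.01 in STAT and between 5.73 and 8.72 in controls, so the groups overlapped throughout. With that mean as a covariate, Pck1 differed by -1.28 ± 0.33 in PAT against control (adjusted p = 0.0147), and with the enterocyte mean by -1.28 (adjusted p = 0.0207). With the Gapdh covariate it differed by -0.31 (adjusted p = 0.81), and G6pc by -2.51. That 3′ minus 5′ Gapdh difference, a sign of RNA quality, averaged -0.07 in PAT females against -0.15 in control females, and -0.16 in PAT males against -0.24 in control males, with overlapping ranges. The covariate took the share of all genes called to 4.16%. With the enterocyte mean that share was 17.8%, and with the adipocyte mean 11.7%. The part of RNA quality in these differences was not tested.

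Pcx, pyruvate carboxylase, fills oxaloacetate for the Pck1 step. By the rule it was represented by an array maker's control probe set at the 3′ end of the gene, and it ranged from 7.60 to 8.56 in PAT, from 6.97 to 8.32 in STAT and from 7.76 to 8.48 in control ileum. The averaged difference was 0.14 ± 0.16 for PAT against control (adjusted p = 0.67) and -0.25 ± 0.17 for STAT against control (adjusted p = 0.55). The ordinary Pcx probe set gave 0.19 ± 0.18 and -0.27 ± 0.19. STAT males 2 and 3, at 6.97 and 7.50, were the lowest arrays of the 22, and without both the STAT difference was 0.11.

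Fbp1, fructose-1,6-bisphosphatase, ranged from 10.2 to 11.1 in PAT, from 10.4 to 11.4 in STAT and from 10.2 to 11.3 in controls. Its averaged difference was -0.27 ± 0.16 in PAT (adjusted p = 0.31) and -0.27 ± 0.17 in STAT (adjusted p = 0.51). For Fbp1 the PAT females were all below the control females, as was so for 13.2% of genes, and the males overlapped. Khk, ketohexokinase, ranged from 9.66 to 10.6 in PAT, from 9.54 to 10.6 in STAT and from 9.80 to 10.5 in controls. It differed by -0.12 ± 0.13 in PAT (adjusted p = 0.65) and by -0.31 ± 0.14 in STAT (adjusted p = 0.36). The PAT and STAT comparisons share their control arrays, so values on both sides move with the same controls.

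Ppargc1a was the gene of the 6 with the highest positive difference. It read 9.09, 8.53 and 9.31 in PAT females, against 8.94, 8.91 and 8.69 in control females. In males it read 9.60, 9.53, 9.11, 8.68 and 9.15 under PAT, against 8.75, 8.36, 9.04, 8.55 and 8.69 in controls. Of the 8 PAT arrays, 6 lay above every control array, and PAT female 2 and PAT male 4 did not. The averaged difference was 0.33 ± 0.13 (adjusted p = 0.117 in limma), and it was 0.44 without PAT female 2 (adjusted p = 0.0364) and 0.40 without PAT male 4 (adjusted p = 0.0395). In males alone it was called, at 0.53 ± 0.16 (adjusted p = 0.0433), where 9.02% of all genes were called and Ppargc1a was 1 of the 6. That call was lost without PAT male 1, 2 or 5 or control male 1, 2, 4 or 5, with an adjusted p of up to 0.13. It was also lost in 6 of 13 alternatives, among them the mean of probe sets (0.29, adjusted p = 0.247) and the Gapdh, adipocyte and enterocyte covariates (adjusted p = 0.0983, 0.0501 and 0.0572). In females the difference was 0.13 ± 0.21 (adjusted p = 0.78), or 0.07 without PAT female 1, and the PAT effect in females minus that in males was -0.40 ± 0.26 (adjusted p = 0.41).

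The other Ppargc1a probe sets disagreed. One gave 0.55 ± 0.13 in PAT against control (adjusted p = 0.0124 over all probe sets) and another 0.45 ± 0.14 (adjusted p = 0.0524). The last pair gave -0.11 ± 0.12 and -0.05 ± 0.14. STAT arrays, between 8.56 and 8.88, overlapped the controls, with a difference of -0.06 ± 0.14 (adjusted p = 0.89).

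**Figure D2:**
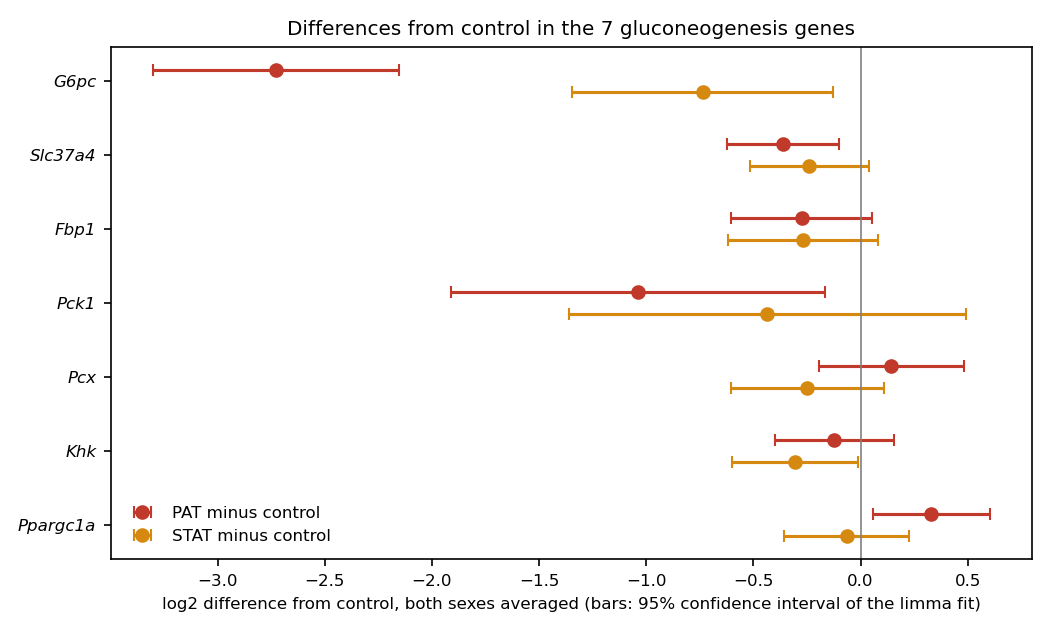
Log2 differences from control of the 7 genes in PAT (red) and STAT (orange), both sexes averaged, with 95% confidence intervals of the limma fit. The PAT interval of G6pc runs from -3.30 to -2.15 and lies below the PAT intervals of the other 6 genes.

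In PAT females, where 3.35% of all genes were called, none of the 6 genes beside G6pc was called, and none had an unadjusted p under 0.05, against 20.9% of all genes. In PAT against STAT with both sexes averaged, where 5.88% were called, none of the 6 was either, and 2 had an unadjusted p under 0.05, against 20.7% of all genes. Pck1 differed there by -0.60 ± 0.44 (adjusted p = 0.491), Ppargc1a by 0.39 ± 0.14 (adjusted p = 0.101) and Pcx by 0.39 ± 0.17 (adjusted p = 0.193). Without STAT males 2 and 3 they were -1.17, 0.44 and 0.03, with no adjusted p under 0.213. Slc37a4, Khk and Fbp1 differed by -0.12, 0.18 and -0.01, and by -0.28, 0.08 and 0.0006 without those males. In STAT against control, limma called 0 of the 6 genes beside G6pc and 0.0% of all genes with both sexes averaged, in females and in males. At an unadjusted p under 0.05 the averaged comparison had 1 of the 6, Khk, and 13.1% of all genes, and the males had 2 of the 6, Khk and Slc37a4, and 15.7% of all genes. With both sexes averaged, all 6 STAT differences were below 0, as were those of 51.5% of all genes. The median of the 6 was -0.26, against -0.00 over all genes. For Pck1 and Pcx the sign rested on STAT males 2 and 3, without which they were at 0.14 and 0.11. Slc37a4, Khk, Fbp1 and Ppargc1a stayed below 0 without those males, at -0.08, -0.20, -0.27 and -0.11. Female against male among controls gave 0 called of the 7, where 0.055% of all genes were called, with G6pc at -0.36 ± 0.39 (adjusted p = 0.77). The tests of the female effect minus the male effect called 0 of the 7 for PAT and for STAT, against 0.0055% and 0.0% of all genes, and at an unadjusted p under 0.05 only G6pc under STAT was past the line.

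Within groups, G6pc varied with Slc37a4, Khk and Fbp1, which its choice by treatment did not use. After the mean of each treatment and sex group was taken off, G6pc and Slc37a4 had r = 0.82 (permutation p = 0.00028, adjusted over 20 relations p = 0.0022) and rho = 0.77 (permutation p = 0.0013, adjusted p = 0.0054) over 22 arrays. Leaving out STAT male 1 and PAT male 3, the arrays farthest from the median, gave r = 0.78. Of all genes, 0.214% had as high an r with G6pc, and 0.945% and 3.24% reached the r of Khk and Fbp1 given next. Khk followed with r = 0.75 (permutation p = 0.00045, adjusted p = 0.0022), rho = 0.71 (permutation p = 0.0013, adjusted p = 0.0054) and r = 0.73 without the same arrays. Fbp1 had r = 0.66 (permutation p = 0.0026, adjusted p = 0.0088), rho = 0.64 (permutation p = 0.0067, adjusted p = 0.017) and r = 0.68 without them. The enterocyte marker mean varied with the same genes, at r = 0.70 for Slc37a4, 0.64 for Khk, 0.41 for Fbp1 and 0.64 for G6pc, with permutation p = 0.00021, 0.0004, 0.0077 and 0.0077. The matching rho values were 0.78, 0.77, 0.58 and 0.50 (permutation p = 0.00025, 0.00057, 0.0065 and 0.04), and r without the 2 farthest arrays was 0.74, 0.66, 0.44 and 0.48. Of all genes, 4.69%, 7.05%, 17.6% and 6.84% had as high an r with that mean. After adjustment over the 20 relations, the rho of G6pc with the enterocyte mean had p = 0.09, and the other 7 adjusted values were at most 0.017. The part of enterocyte content in these relations was not tested.

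Pck1 and Pcx varied with the fat markers. The adipocyte marker mean and Pcx had r = 0.78 (permutation p = 0.0012, adjusted p = 0.0048) and rho = 0.77 (permutation p = 0.00081, adjusted p = 0.0054), with r = 0.72 without STAT males 1 and 2. For Pck1 the values were r = 0.66 (permutation p = 0.0039, adjusted p = 0.011), rho = 0.69 (permutation p = 0.0036, adjusted p = 0.012) and r = 0.66 without PAT males 3 and 5. Of all genes, 0.396% and 0.846% had as high an r with that mean as Pcx and Pck1. With the enterocyte mean Pcx had r = 0.63 and rho = 0.23 (permutation p = 0.083 and 0.43, adjusted p = 0.15 and 0.66), with r = 0.20 without STAT males 1 and 2. Pck1 had r = 0.52 and rho = 0.40 with it (permutation p = 0.063 and 0.14, adjusted p = 0.13 and 0.27), with r = 0.55 without PAT males 3 and 5. Whether the fat and enterocyte relations differ was not tested. G6pc had r = 0.00 and rho = -0.03 with the adipocyte mean (permutation p = 1.0 and 0.91, both at 0.93 or more after adjustment), and r = -0.38 without STAT male 1 and PAT male 3. G6pc with Pck1 had r = 0.47 and rho = 0.37 (permutation p = 0.089 and 0.16, adjusted p = 0.15 and 0.3), and r = 0.21 without those arrays. G6pc with Ppargc1a had r = -0.02 and rho = -0.08 (permutation p = 0.95 and 0.76, adjusted p = 1.0 and 0.91), and r = 0.08 without them.

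**Figure D3:**
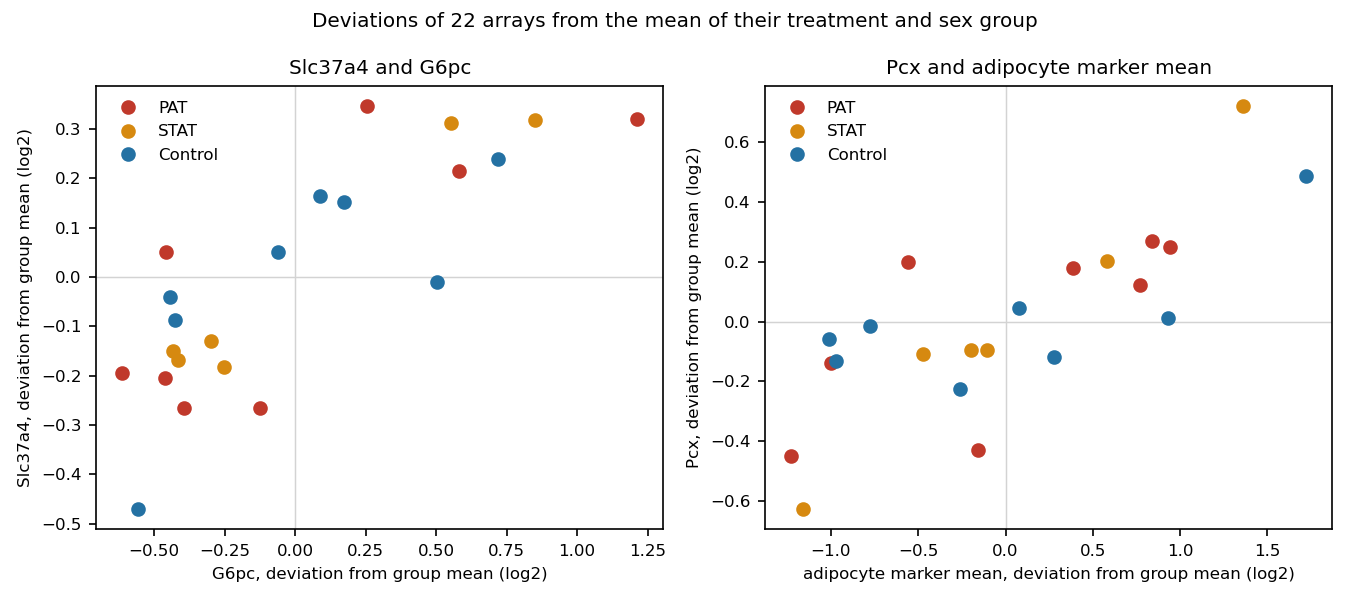
Deviation of each of the 22 arrays from the mean of its treatment and sex group, in log2 units, coloured by treatment. Slc37a4 against G6pc is on the left (r = 0.82) and Pcx against the adipocyte marker mean on the right (r = 0.78), with points of all 3 treatments along both slopes.

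The genes whose level followed G6pc most closely over all 22 arrays, out of 11451 genes whose mean reached 6, were Mocs2 (r = 0.96), Erbb3 (0.96), Rnf167 (0.95), Trim34a (0.95) and Crebrf (0.94). Their r after removal of the group means was 0.90, 0.83, 0.86, 0.85 and 0.71 in the same order. The most opposite genes were Aen (-0.92), Odc1 (-0.91), Taf4b (-0.91), Tmem131 (-0.90) and Plat (-0.90), with -0.85, -0.63, -0.75, -0.62 and -0.55 after removal of the group means. These likenesses hold the treatment difference itself and are a description. All 5 of the first genes differed less than G6pc, by -0.87 to -0.68 in PAT against control.

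Of 101 measured genes in 6 lists of glucose metabolism outside the 7, 16 passed the test in PAT against control with both sexes averaged, 11 higher and 5 lower. That is 15.8%, beside 11.0% of all genes (4.61% higher and 6.38% lower). In STAT against control, none of the lists had a called gene, and 0.0% of all genes were called there.

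Among the other gluconeogenesis enzymes, 3 of 16 measured genes rose and 0 fell, with a median of 0.06. They were Got1, the cytosolic aspartate aminotransferase, at 0.39 ± 0.09 (adjusted p = 0.00633), and the shared glycolytic enzymes Pgk1 at 0.20 ± 0.06 and Pgam1 at 0.19 ± 0.06. The Pgam1 call was lost in 12 of 16 omissions of 1 array, that of PAT female 1 included, with an adjusted p of up to 0.117, and in 6 of 13 alternatives (up to 0.40), and that of Pgk1 in 4, those of control females 1 and 2 and of PAT females 2 and 3 (up to 0.087). Of 11 genes for entry of glutamine, glycerol and propionate, 1 rose and 0 fell, with a median of -0.00. It was Gpd2, the mitochondrial glycerol-3-phosphate dehydrogenase. Gpd2 read 11.71, 11.49 and 12.17 in PAT females and 12.02, 12.13, 11.83, 11.51 and 12.40 in PAT males, against 11.39, 11.36 and 11.44 in control females and 11.23, 11.32, 11.35, 11.31 and 11.22 in control males. All PAT arrays were above all controls, as was so for 0.544% of genes, and the difference was 0.54 ± 0.13 (adjusted p = 0.00837 in limma).

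Of 12 genes for uptake and sensing of fructose and glucose, 1 fell and 0 rose, with a median of -0.09. Arrdc4, a target of the glucose-sensing factor ChREBP, differed by -0.84 ± 0.12 (adjusted p = 0.00022 in limma). For Arrdc4, 8 of 8 PAT arrays lay below all controls, as was so for 1.15% of all genes. Slc5a1 (SGLT1) and Slc2a5 (GLUT5), the apical sugar transporters, differed by -0.09 ± 0.13 and 0.00 ± 0.16. Slc2a2 (GLUT2) differed by 1.15 ± 0.50 (adjusted p = 0.158), and PAT female 1 alone read 10.02 while the other PAT arrays ran from 4.43 to 7.48. Without PAT female 1 Slc2a2 differed by 0.61 (adjusted p = 0.485).

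Glycolysis and pyruvate use had calls in both directions, 3 higher and 3 lower of 16, with a median of -0.04. Hk2, a hexokinase that runs opposite to G6pc by phosphorylating glucose, read 8.73, 10.09 and 10.95 in PAT females and 10.65, 11.46, 9.85, 10.22 and 10.45 in PAT males, against 8.70, 8.54 and 8.70 in control females and 8.47, 10.15, 8.57, 8.65 and 9.03 in control males. The difference was 1.41 ± 0.29 (adjusted p = 0.00388 in limma), and 5 of 8 PAT arrays were above every control, of which control male 2 was the highest. Pfkfb3, which makes the activator of phosphofructokinase, read 7.56, 7.08 and 7.28 in PAT females and 7.78, 8.69, 8.15, 7.40 and 5.7 in PAT males. It read 5.48, 5.78 and 5.26 in control females and 5.36, 8.10, 6.89, 5.68 and 5.90 in control males, so the groups overlapped, and the difference was 1.48 ± 0.38 (adjusted p = 0.0142). Pfkl, the liver-type phosphofructokinase, rose by 0.32 ± 0.08 (adjusted p = 0.0132). Pfkfb2, Pdk2 and Pklr fell by 0.40 ± 0.06, 0.48 ± 0.14 and 0.34 ± 0.10 (adjusted p = 0.000201, 0.0283 and 0.0266). When the probe sets of each gene were averaged, Pfkfb3 differed by 0.71, Pfkl by 0.15 and Pfkfb2 by -0.00. The Pdk2 call was lost without control female 1 or 3, PAT female 2, control male 1 or PAT male 4 (adjusted p up to 0.0739), and that of Pklr when control female 3 or PAT female 2 was left out (up to 0.085) or the mean of its probe sets was used (0.0787).

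Among 32 regulators of gluconeogenic genes, 3 rose and 1 fell, with a median of 0.00. Creb3l3, a liver and gut transcription factor released from the endoplasmic reticulum, read 11.62, 10.97 and 11.89 in PAT females and 11.67, 11.49, 11.63, 11.00 and 11.64 in PAT males, against 10.55, 10.75 and 10.79 in control females and 10.66, 10.72, 10.69, 10.40 and 10.73 in control males. All 8 PAT arrays were above all controls, as was so for 0.544% of all genes, and the difference was 0.82 ± 0.20 (adjusted p = 0.0114 in limma). Nr0b2, the bile-acid-induced repressor SHP, read 8.63, 6.88 and 7.80 in PAT females and 6.83, 6.11, 5.95, 6.48 and 9.20 in PAT males, against 6.05, 6.16 and 5.72 in control females and 5.48, 5.54, 4.98, 5.80 and 5.80 in control males. It differed by 1.59 ± 0.36 (adjusted p = 0.00626), with 6 of 8 PAT arrays above all controls. With the Gapdh covariate the adjusted p of Nr0b2 was 0.0931. The liver factor gene Cebpb rose by 0.52 ± 0.09 (adjusted p = 0.00113) and the glucocorticoid receptor gene Nr3c1 fell by 0.37 ± 0.08 (adjusted p = 0.00458). Hnf4a and Foxo1, which act on the G6pc promoter in liver, differed by 0.00 ± 0.06 and -0.09 ± 0.07 (adjusted p = 0.996 and 0.50).

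Of 14 genes for glycogen and other uses of glucose-6-phosphate, 1 rose and 0 fell, with a median of -0.05. It was Gfpt1, which opens the hexosamine pathway, at 0.20 ± 0.05 (adjusted p = 0.0223 in limma). That call was lost without control female 2 or PAT female 3, with an adjusted p of up to 0.0627.

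**Figure D4:**
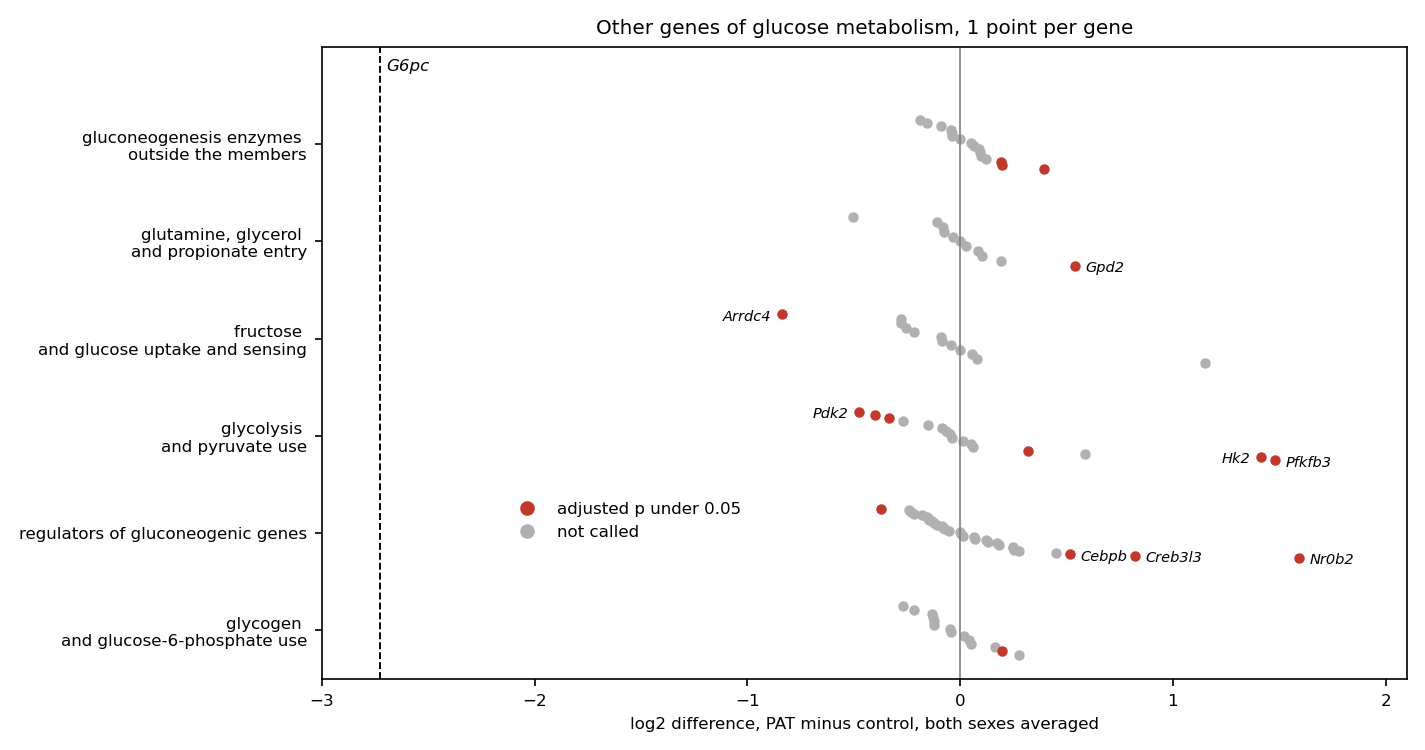
Log2 difference of PAT from control, both sexes averaged, for the 101 measured genes of the 6 lists, 1 point a gene, in red where the adjusted p was under 0.05. The dashed line at -2.73 marks G6pc, and every list gene lies to the right of it, with Nr0b2 farthest right at 1.59.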

How the data were processed

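Terminal ileum RNA from 22 samples was extracted with TRIzol and RNeasy columns and labelled with biotin, per the labels' protocols. The deposited values are log2 expression per probe set, which the authors made with RMA in affy, per the submitters' processing notes. No version or scan date is stated in the sources used. The table held 45101 probe sets with column medians of 5.68 to 5.79, and no pair of arrays was identical. Of these, 34958 had 1 symbol in the platform annotation, 932 had several and 9211 none. Per gene, the probe set of highest mean stood for it, array maker's controls included.

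A limma 3.58.1 model (R 4.3.3) with 1 mean for each of the 6 groups was fitted to 18194 genes, with 16 residual degrees of freedom. Sexes were averaged with equal weight, and p-values were adjusted by Benjamini-Hochberg over all genes within a comparison, with calls under 0.05. The fit was tested on simulated data. G6pc was chosen on PAT and control arrays, so it has no p-value and is left out of counts in PAT against control, PAT against STAT and STAT against control. The same holds for the PAT and STAT effects in females minus those in males. STAT against control and these differences between the sexes had been planned as tests of G6pc. Correlations used 100000 permutations, two-sided. The members and lists were chosen with earlier results of these data known. Named genes were the 7 members, up to 6 called genes a list with the smallest p, and the 5 genes most like and most unlike G6pc. Others, such as G6pc3, Pck2 or Slc2a2, were named after their values were seen. RMA gives no detection calls, the number of arrays limits precision, and differences of dim genes are understated.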

Additional observations from a re-analysis of the deposited data

Results flagged for a closer look

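Among 62 groups of 5 arrays, for the genes whose values or differences are given above, 3 held a lone array far from the rest, and chance alone marks about 1 group in 20. Nr0b2 read 9.195 in PAT male 5, while the other PAT males read 5.95 to 6.83. Without that array the difference of PAT from control was 1.31 (adjusted p = 0.000701 in limma). Creb3l3 read 11.0 in PAT male 4, below 11.49 to 11.67 in the other PAT males, and 10.4 in control male 4, below 10.66 to 10.73 in the other control males. Over all omissions of 1 PAT or control array, these included, it differed by 0.72 to 0.95 (adjusted p at most 0.0367 in limma).

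For 2 genes every array of one sex lay on one side of its control mean and every array of the other sex on the opposite side. G6pc3 was above the control mean in all PAT females and below it in all PAT males, and the effect in females minus that in males was 0.2576 (adjusted p = 0.363 in limma). Pfkfb2 did the same under STAT, at 0.2161 (adjusted p = 0.991 in limma). Neither difference between the sexes passed the test.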

How the results depend on the processing

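G6pc kept its direction in PAT against control in all 13 alternatives, from -2.92 to -2.51, and in PAT against STAT it lay between -2.69 (enterocyte mean as a covariate) and -1.81. In STAT against control it lay between -0.84 (array weights) and -0.23, and in males between -1.75 (array weights) and -0.68. The covariates of adipocyte and enterocyte means, the omission of STAT males 2 and 3 together and the omission of control probe sets were chosen after seeing the data.

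The count of called genes among the 6 beside G6pc in PAT against control was 0, with 11.0% of all genes called. It was 1 with the adipocyte mean (11.7%) and 2 with the enterocyte mean (17.8%). Without 1 array it was 0 to 2, with 7.44% of all genes called without control female 3 and 11.4% without PAT male 1. In males, 1 (9.02% of all genes) became 0 with the mean of probe sets (7.93%) and with only the groups compared (5.23%). It was also 0 with array weights (8.13%) and with the Gapdh covariate (5.77%). Without 1 array it was 0 to 1, with 5.25% called without control male 1 and 11.5% without PAT male 1. With the enterocyte mean it was 2 (2736 genes called in all). The 2 were Pck1 and Slc37a4, and with the adipocyte mean Pck1 was called and Ppargc1a was not. In PAT against STAT, 0 (5.88% of all genes) became 1 with array weights (14.5%) and with the enterocyte mean (7.71%). Without 1 array it was 0 to 1, with 5.26% called without PAT female 2 and 9.22% without STAT male 1. In STAT against control in males, 0 of 6 with 0.0% of all genes called became 4 with array weights (22.4%) and 0 to 1 without 1 array, 1 (Pcx) without STAT male 1 (10.9%).

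Called genes in PAT against control ranged over the 13 alternatives from 1 to 5 among the other gluconeogenesis enzymes (3 as reported), 1 to 2 for glutamine, glycerol and propionate entry (1), 1 to 2 for sugar uptake (1), 4 to 7 for glycolysis (6), 3 to 6 for regulators (4) and 0 to 4 for glycogen (1). The share of all genes called moved as well. It was 11.0% as reported, 4.16% with the Gapdh covariate and 19.6% with only genes whose mean reached 6. The Gapdh covariate, with 4.16% of all genes called, ended the calls of Pgam1, Pgk1, Pdk2, Pklr, Gfpt1 and Nr0b2. That of Pgam1 was also lost with quantile normalization repeated, median centring, only the groups compared, every probe set and beta-actin, and those of Pklr and Pfkfb2 with the mean of probe sets.

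Small uncalled differences changed sign. In STAT against control, Pck1 was 0.21 with the Gapdh covariate, 0.12 with the beta-actin covariate, 0.14 without STAT males 2 and 3 and 0.20 with the enterocyte mean. Pcx was 0.042, 0.11 and 0.035 with beta-actin, without those males and with the enterocyte mean. Slc37a4 was 0.0057 with the enterocyte mean, and Ppargc1a was 0.023 with the mean of probe sets and 0.0102 with the enterocyte mean. Pcx in PAT against STAT was -0.0009 with the enterocyte mean. The cause was not tested. No paired analysis was possible because the labels give the groups no shared replicate numbers.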
